A study of Gallus gallus with 10 samples.

Results

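The 9 transcription factor genes SIX3, SIX6, RAX, PAX6, LHX2, FEZF2, HESX1, EMX2 and OTX1, which pattern the forebrain and the eye field, were described in RNA-seq data from cranial neural folds of chick embryos (Gallus gallus). The 9 were chosen by name, each by the symbol given in the deposited expression table, and each name matched 1 of the 19168 genes in that table. They were taken as a sign of how much rostral tissue each pool of folds held, an assumption that was not tested.

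In both groups, chick embryos of Hamburger-Hamilton stage 4 to 5 were electroporated bilaterally and their folds were collected at 5 to 7 somites. The control group received 0.5 mM of the morpholino that the labels call mmMO and the other group 0.5 mM of an NSD3 morpholino. Both groups also carried 300 ng/µL of the plasmid pCS2+myc as carrier DNA. Each group had 5 libraries of poly(A) RNA, each from a pool of folds from 12 embryos, with 60 embryos per condition. A morpholino is an antisense oligomer that hinders the translation or the splicing of its target, and NSD3 is a histone methyltransferase with a SET domain. As background, electroporation seldom reaches every cell, so a pool can also hold cells without morpholino. Pools are numbered below as the labels number the replicates.

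As background, the rostral end of the vertebrate neural plate forms the telencephalon, the diencephalon and, at its centre, a single eye field that later splits into a pair of optic vesicles. The eye field is set up by a group of transcription factors that sustain each other's expression, among them RAX, PAX6, SIX3, SIX6 and LHX2. HESX1, FEZF2, EMX2 and OTX1 act in the anterior neural plate and in the regions of the forebrain that arise from it. Low WNT signalling favours rostral over caudal fate, and SIX3 and HESX1 act as repressors that protect the rostral territory, as shown mainly in mouse and zebrafish. Neural crest forms along the folds caudal to the most rostral forebrain.

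NSD3 itself stood between 20.8 and 25.9 FPKM in the control pools and between 15.9 and 19.5 FPKM in the NSD3 morpholino pools. FPKM counts fragments relative to transcript length and to a scaling factor per library. The groups did not overlap, with a two-sided exact permutation p of 0.007937, the smallest the design allows, and a limma adjusted p of 0.055. The log2 fold change of NSD3 was -0.34. The authors' deposited table gives NSD3 a log2 fold change of -0.35 with an adjusted p of 0.00439. Relative depth, here the scaling per library read from the steps between low FPKM values, ran from 0.887 to 1.055 of the libraries' geometric mean in 9 libraries. NSD3 morpholino pool 1 stood apart at 1.295, and it also had the most genes above 0 FPKM (16638). As for the tissue label, all 9 pan-neural genes found in the table and 11 of 12 neural crest genes had a mean of at least 1 FPKM. Of 11 genes of blood and endothelium, 7 stayed under that level, with HBA1, HBBA and RUNX1 under 0.1 FPKM. Of 11 hindbrain genes, 5 stayed under it, with HOXA3, HOXD3 and HOXB4 under 0.1 FPKM. So did 1 of 14 midbrain and boundary genes and 9 of 23 other rostral neural genes. Of other tissues, 2 of 10 genes of non-neural ectoderm and 5 of 15 of anterior preplacodal and lens ectoderm stayed under it. So did 5 of 13 of prechordal plate, notochord and foregut and 4 of 9 of head mesenchyme. These counts do not show how free the pools were of other tissue.

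The 9 genes spanned a wide range of levels. Averaged over all 10 pools, SIX3 stood highest at 77.0 FPKM, followed by PAX6 at 40.1, OTX1 at 29.5, FEZF2 at 25.8, HESX1 at 25.1 and RAX at 24.1 FPKM. LHX2 stood at 7.44, EMX2 at 3.18 and SIX6 at 0.458 FPKM. SIX3 exceeded PAX6 in all 10 pools and their ranges did not meet. From PAX6 down to RAX the ranges of neighbours overlapped. PAX6 exceeded OTX1 in 8 of 10 pools and FEZF2 exceeded HESX1 in 5 of 10. The order of PAX6, OTX1, FEZF2, HESX1 and RAX was therefore not fixed across pools. RAX exceeded LHX2, LHX2 exceeded EMX2 and EMX2 exceeded SIX6 in all 10 pools. SIX3 lay at percentile 95.1 of the mean FPKM of all genes in the table, LHX2 at 60.9 and SIX6 at 31.1.

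**Figure D1:**
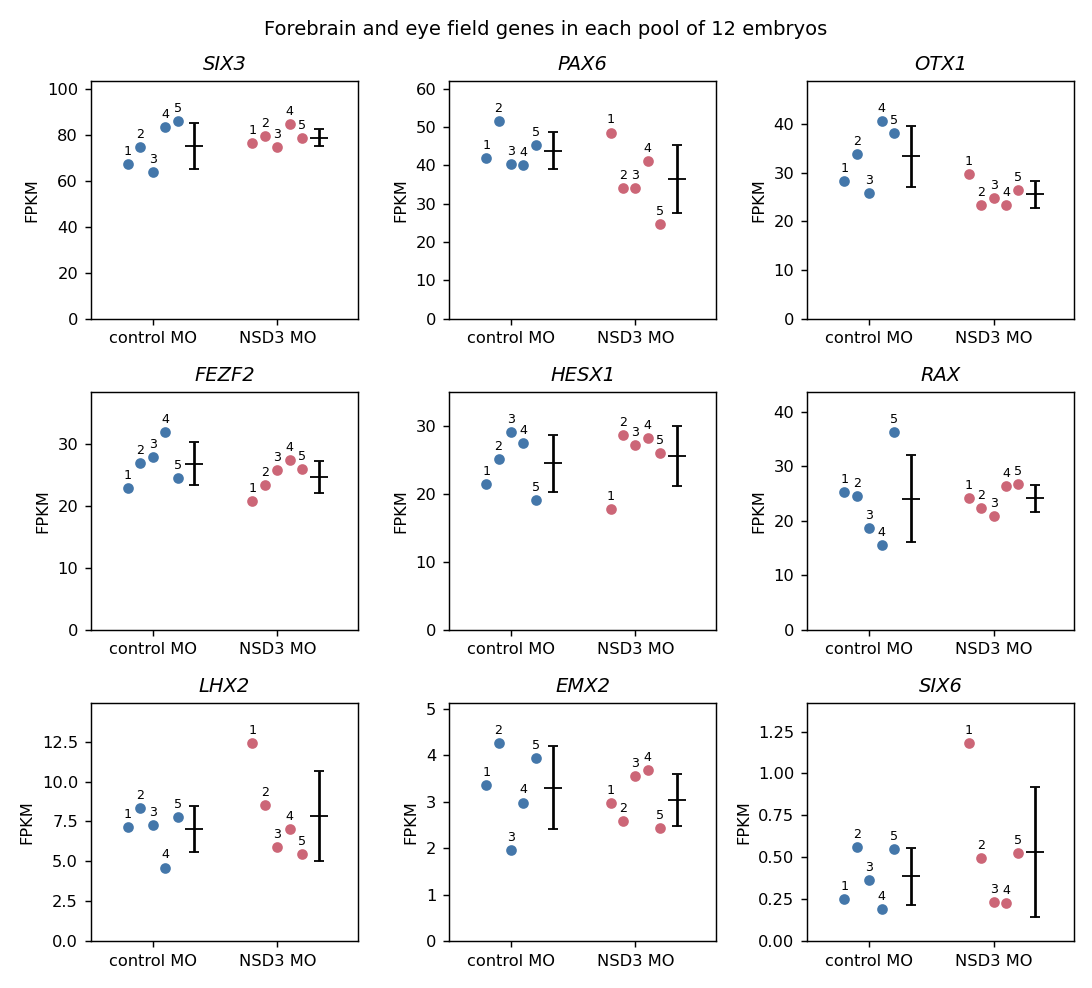
FPKM of the 9 forebrain and eye field genes (vertical axes, each from 0) in the 5 control morpholino pools and the 5 NSD3 morpholino pools, with the replicate number above each point and the group mean ± SD beside the points. The groups overlap for every gene. OTX1 shows 3 NSD3 morpholino pools below the lowest control pool, and LHX2 and SIX6 have their highest value in NSD3 morpholino pool 1.

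None of the 9 genes separated the groups. Of the 8 with a mean of at least 1 FPKM, which were tested, limma called 0 higher and 0 lower at an adjusted p under 0.05, and 8 did not pass. The same test called 2.52% of all 11935 tested genes, 179 higher and 122 lower (125 and 173 with FPKM rescaled to the same total). At an unadjusted p under 0.05 it found 1 of the 8, OTX1, against 18.1% of all tested genes. The groups overlapped for all 8, while 6.04% of tested genes had groups that did not overlap. In the authors' deposited table of 674 genes, which holds 3.52% of the genes in the FPKM table, 0 of the 9 were listed. That table holds only genes with an adjusted p of at most 0.0499 in the authors' own test, while limma called 301 genes here. Being listed there and being called by limma are therefore not like for like. The log2 fold changes of the 8, NSD3 morpholino over control, were 4 negative and 4 positive with a median of -0.01, and the median over all tested genes was -0.003. In bulk samples such as these, fewer cells of a type and less RNA per cell cannot be told apart. With 5 pools a group the 95% intervals still allowed changes of some size, so they bound the differences and do not show that the groups were alike.

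Among the eye field genes, SIX3 (ENSGALG00000032259), a homeobox gene of the most rostral neural plate, had the narrowest interval. Its control pools 1 to 5 stood at 67.3, 74.9, 63.7, 83.7 and 86.3 FPKM and its NSD3 morpholino pools 1 to 5 at 76.5, 79.7, 75.0, 84.6 and 78.8 FPKM. All 5 NSD3 morpholino pools lay inside the control range and above the control median. The log2 fold change was 0.08 (SE 0.0855, 95% interval -0.11 to 0.26, limma adjusted p 0.684), which puts the ratio between 0.928 and 1.2. It was 0.02 without control pool 3, 0.13 without control pool 5 and 0.20 (adjusted p 0.126) without control pools 4 and 5. The SD was 9.87 FPKM over the control pools and 3.69 FPKM over the NSD3 morpholino pools.

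RAX (ENSGALG00000033279), the retinal homeobox gene needed for eye formation, had nearly equal means and a wide control group. Its control pools stood at 25.2, 24.5, 18.8, 15.5 and 36.3 FPKM and its NSD3 morpholino pools at 24.2, 22.4, 20.9, 26.3 and 26.8 FPKM. Control pool 4 was the lowest and control pool 5 the highest of all 10, and all NSD3 morpholino pools lay between them. The means were 24.1 ± 7.96 and 24.1 ± 2.5 FPKM (SD, n = 5 each), with a log2 fold change of 0.06 (95% interval -0.34 to 0.46, limma adjusted p 0.911). The sign turned without control pool 3 (-0.02) or control pool 4 (-0.08).

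PAX6 (ENSGALG00000012123), a paired-box gene of eye, forebrain and lens, had a wider spread in the NSD3 morpholino group than in controls. Its control pools stood at 41.8, 51.6, 40.3, 39.99 and 45.2 FPKM and its NSD3 morpholino pools at 48.5, 34.1, 34.2, 41.0 and 24.6 FPKM. NSD3 morpholino pools 2, 3 and 5 lay below every control pool, while pools 1 and 4 lay within the control range. The means were 43.8 ± 4.85 and 36.5 ± 8.92 FPKM (SD, n = 5 each). The log2 fold change of -0.29 (SE 0.151, 95% interval -0.62 to 0.04) had a limma adjusted p of 0.343, and 0.179 to 0.546 over 20 alternative settings. Without NSD3 morpholino pool 5 it was -0.16.

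LHX2 (ENSGALG00000001124), a LIM homeobox gene of the eye field and telencephalon, had control pools at 7.17, 8.31, 7.29, 4.61 and 7.80 FPKM. Its NSD3 morpholino pools stood at 12.4, 8.51, 5.86, 7.01 and 5.42 FPKM. The highest pool of the 10 was NSD3 morpholino pool 1 and the lowest was control pool 4. The log2 fold change was 0.11 (95% interval -0.35 to 0.57, limma adjusted p 0.829), and it became -0.06 without NSD3 morpholino pool 1, -0.02 without control pool 4 and -0.01 without control pools 4 and 5.

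SIX6 (ENSGALG00000020359), the paralog of SIX3 that marks the later optic and hypothalamic territory, was close to the limit of detection and was not tested. Its control pools stood at 0.252, 0.563, 0.365, 0.193 and 0.551 FPKM and its NSD3 morpholino pools at 1.18, 0.492, 0.230, 0.225 and 0.525 FPKM. After correction for relative depth these values were whole multiples of 1 step to within 0.0104 of a step. The number of fragments behind a step is not known, and multiples of the smallest whole numbers would fit as well. Those smallest numbers were 5, 11, 7, 4 and 11 fragments in the control pools and 30, 9, 4, 4 and 10 fragments in the NSD3 morpholino pools. Taken at these smallest numbers, NSD3 morpholino pool 1 held 30 of the 57 fragments of its group, with an exact Poisson 95% interval of 20.2 to 42.8 that covers counting error only. The same interval for control pool 2 was 5.49 to 19.7 fragments. Without a filter on low values, SIX6 had a log2 fold change of 0.17 (95% interval -0.33 to 0.67) and a limma adjusted p of 0.781.

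The other 4 genes belong to the anterior neural plate and the forebrain at large. HESX1 (ENSGALG00000005506), a homeobox repressor of the anterior neural ridge and forebrain, had control pools at 21.5, 25.1, 29.2, 27.6 and 19.2 FPKM. Its NSD3 morpholino pools stood at 17.9, 28.7, 27.3, 28.2 and 26.0 FPKM. Of the 5 NSD3 morpholino pools 4 lay above the control median, and pool 1 lay below all 9 other pools. The log2 fold change was 0.06 (95% interval -0.26 to 0.37, limma adjusted p 0.879), and -0.02 without control pool 5.

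FEZF2 (ENSGALG00000007184), a zinc finger gene of forebrain patterning, had control pools at 22.9, 26.9, 27.9, 32.0 and 24.5 FPKM and NSD3 morpholino pools at 20.8, 23.4, 25.8, 27.5 and 25.9 FPKM. Control pool 4 was the highest and NSD3 morpholino pool 1 the lowest. The log2 fold change was -0.12 (SE 0.101, 95% interval -0.34 to 0.10, limma adjusted p 0.592). It was -0.05 without control pool 4 and -0.06 without NSD3 morpholino pool 1.

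EMX2 (ENSGALG00000009302), a homeobox gene of the dorsal telencephalon, had control pools at 3.36, 4.27, 1.97, 2.99 and 3.94 FPKM and NSD3 morpholino pools at 2.97, 2.59, 3.55, 3.69 and 2.44 FPKM. All 5 NSD3 morpholino pools lay inside the control range. The log2 fold change was -0.08 (95% interval -0.48 to 0.32, limma adjusted p 0.866), and it was 0.01 without control pool 2, the highest pool.

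OTX1 (ENSGALG00000028817), a homeobox gene of forebrain and midbrain, had the largest difference of the tested 8. Its control pools stood at 28.3, 34.0, 25.9, 40.8 and 38.2 FPKM and its NSD3 morpholino pools at 29.9, 23.4, 24.9, 23.3 and 26.4 FPKM. NSD3 morpholino pools 2, 3 and 4 lay below every control pool, all 5 lay below the control median, and the groups overlapped through control pools 1 and 3. The means were 33.4 ± 6.33 and 25.6 ± 2.72 FPKM (SD, n = 5 each), with a log2 fold change of -0.37 (SE 0.124, 95% interval -0.64 to -0.09). The limma adjusted p of 0.147 missed the threshold, as it did in all 20 alternative settings (0.0574 to 0.336), and the unadjusted two-sided exact permutation p was 0.04762. Without control pools 4 and 5, where OTX1 was highest, the log2 fold change was -0.19. These 2 pools also had the highest mean levels of the midbrain, neural crest and pan-neural lists, given below. The part of those lists in the OTX1 values was not tested.

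**Figure D2:**
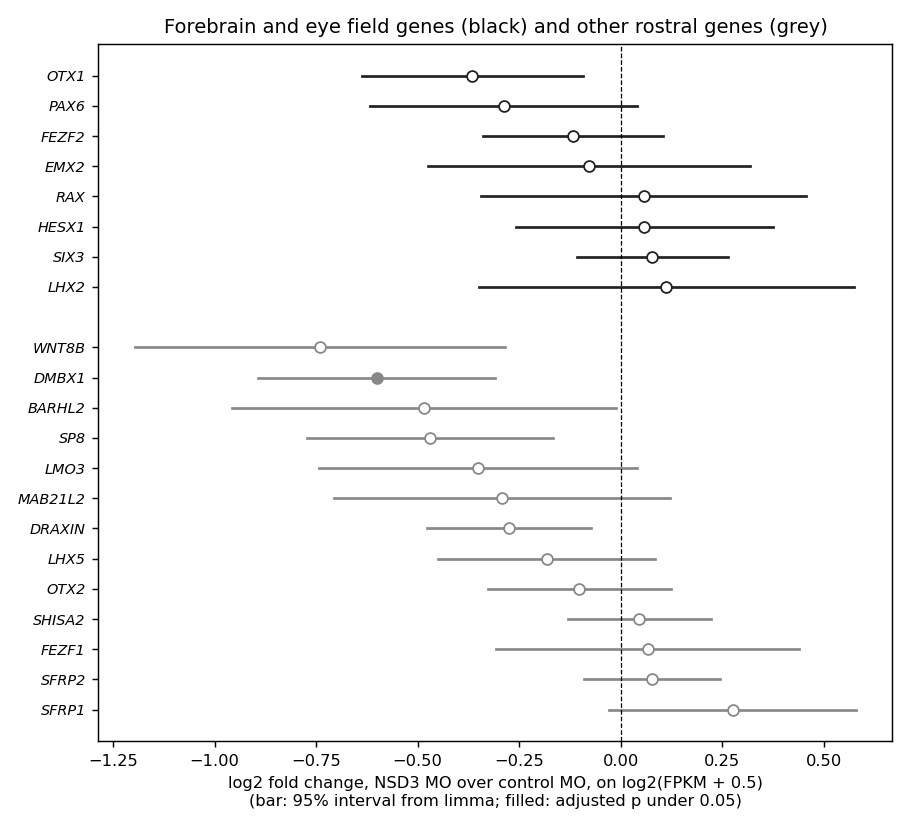
Log2 fold change of NSD3 morpholino over control morpholino on the log2(FPKM + 0.5) scale (horizontal axis), with its 95% interval from limma, for the 8 tested forebrain and eye field genes in black and 13 other rostral genes in grey. Filled points have an adjusted p under 0.05, which holds for DMBX1 only. The intervals of 7 of the 8 black genes cross 0, and that of OTX1 runs from -0.64 to -0.09.

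How the genes varied from pool to pool was described next, on log2(FPKM + 0.5) with each gene's mean over the 10 pools taken away. The 9 genes did not rise and fall together. In NSD3 morpholino pool 1, LHX2 (0.75) and SIX6 (0.86) had their highest values, while FEZF2 (-0.29) and HESX1 (-0.46) had their lowest. Control pool 4 showed the opposite order, with the lowest values of LHX2 (-0.59), RAX (-0.59) and SIX6 (-0.42) and the highest of FEZF2 (0.32) and OTX1 (0.48). Control pool 5 held the highest RAX (0.62) and SIX3 (0.17), with HESX1 at -0.36. Control pool 2 held the highest PAX6 (0.39) and EMX2 (0.40), with 8 of 9 genes above their own mean.

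**Figure D3:**
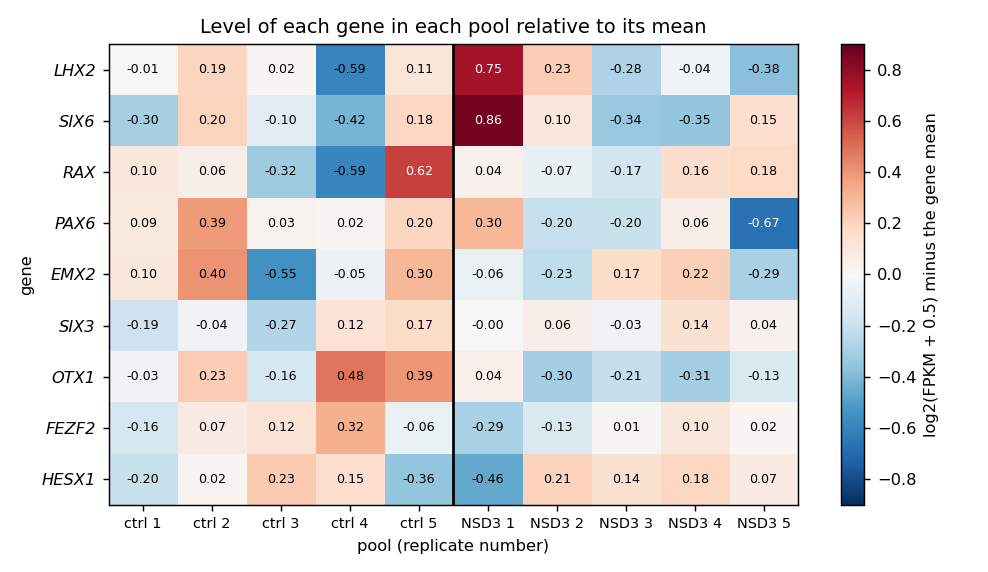
Level of each forebrain and eye field gene (rows) in each pool (columns, control pools left and NSD3 morpholino pools right of the line), as log2(FPKM + 0.5) minus the gene's mean over the 10 pools. LHX2 and SIX6 are high and HESX1 and FEZF2 low in NSD3 morpholino pool 1, with LHX2, SIX6 and RAX low and FEZF2 and OTX1 high in control pool 4.

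The spread within groups also differed between the genes. On the log2 scale the residual SD of the fit was 0.142 for SIX3, 0.169 for FEZF2 and 0.220 for OTX1, against a median of 0.184 over all tested genes. It was 0.34 for RAX, 0.387 for LHX2 and 0.309 for EMX2, with LHX2 at percentile 90.9 and RAX at percentile 87.0 of all tested genes. The ratio of the highest to the lowest pool was 1.35 for SIX3, 1.54 for FEZF2, 2.35 for RAX, 2.70 for LHX2 and 6.12 for SIX6.

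Averaged over the 9 genes, the level differed little between groups. Genes that move in opposite directions offset each other in this mean, as LHX2 (0.75) and HESX1 (-0.46) did in NSD3 morpholino pool 1. A flat mean therefore does not show that the pools held equal shares of rostral tissue. The control pools ran from -0.11 to 0.17 around the overall mean, with control pools 2 (0.170) and 5 (0.171) highest. The NSD3 morpholino pools ran from -0.11 to 0.13, with pool 1 highest and pool 5 lowest. Over the 8 tested genes, without SIX6, pool 1 stood at 0.04 and pool 4 was the highest of that group at 0.06. The group means were 0.02 ± 0.138 and -0.02 ± 0.10 (SD, n = 5 each), and the ranges overlapped almost fully. Leaving out any 1 gene or changing the pseudocount moved the difference between groups by less than the SD within groups.

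A longer list of 24 other rostral neural genes was set beside the 9, of which 23 were in the table and 14 were tested. Limma called 1 lower, DMBX1, and 0 higher, and 13 did not pass, beside 2.52% called of all tested genes. DMBX1, a homeobox gene of the caudal diencephalon and midbrain, had control pools at 85.9, 107, 123, 118 and 91.0 FPKM and NSD3 morpholino pools at 53.9, 60.7, 69.0, 84.5 and 78.2 FPKM. The groups did not overlap, and its log2 fold change was -0.60 (SE 0.134, limma adjusted p 0.0393). The call ended without control pool 2 (adjusted p 0.0766), 3 (0.0603) or 4 (0.0942) and without NSD3 morpholino pool 1 (0.072), 2 (0.109), 3 (0.083) or 5 (0.0577). It also ended without a filter on low values (0.0635), without a trend (0.0633) and without control pools 4 and 5 (0.0579). Over 20 alternatives the adjusted p ran from 0.0267 to 0.109 and the log2 fold change from -0.676 to -0.515. The authors' deposited table lists DMBX1 with an adjusted p of 0.00133 at a log2 fold change of -0.60.

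WNT8B and SP8, also of this list, stood in the authors' deposited table and missed the threshold here. WNT8B, a WNT ligand gene of the dorsal forebrain midline, had control pools at 4.75, 5.91, 2.71, 5.81 and 6.27 FPKM and NSD3 morpholino pools at 2.24, 2.13, 3.27, 3.65 and 2.65 FPKM. Control pool 3 lay among the NSD3 morpholino pools, and the other control pools lay above all of them. Its log2 fold change was -0.74 (limma adjusted p 0.0869), and -0.93 with an adjusted p of 0.0139 without control pool 3. The authors' deposited table gives WNT8B a log2 fold change of -0.88 with an adjusted p of 0.0161.

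SP8, a zinc finger gene of the anterior neural ridge and dorsal telencephalon, had control pools at 25.8, 33.5, 23.0, 28.2 and 33.8 FPKM. Its NSD3 morpholino pools stood at 22.9, 24.4, 19.7, 21.7 and 15.1 FPKM. Of these 5 pools 4 lay below every control pool. Its log2 fold change was -0.47 (limma adjusted p 0.103), and -0.48 with an adjusted p of 0.0247 in the authors' deposited table.

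The remaining tested genes of the list went in both directions without passing. Broad markers of rostral neural tissue were abundant. SHISA2, an inhibitor of FGF and WNT receptor maturation in Xenopus, stood at 851 ± 77.0 FPKM over the control pools and 879 ± 83.5 FPKM over the NSD3 morpholino pools (SD, n = 5 each). OTX2, the homeobox gene of the whole forebrain and midbrain, stood at 235 ± 33.3 and 218 ± 25.1 FPKM. SHISA2 had a log2 fold change of 0.04 (limma adjusted p 0.818), which turned to -0.001 with FPKM rescaled to the same total and to -0.04 without control pools 4 and 5. OTX2 had -0.10 (adjusted p 0.657), and 0.03 without control pools 4 and 5.

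The WNT antagonist genes SFRP1 and SFRP2 had log2 fold changes of 0.28 (limma adjusted p 0.322) and 0.08 (0.653). SFRP1 was lowest in control pool 4, at 74.2 FPKM, and highest in NSD3 morpholino pool 4, at 138 FPKM. Its log2 fold change was 0.17 without control pool 4 and 0.04 without control pools 4 and 5. DRAXIN, a secreted WNT antagonist and axon guidance gene, had -0.28 (0.142). LHX5, a LIM homeobox gene of the diencephalon, had -0.18 (0.474).

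FEZF1, the paralog of FEZF2, had a log2 fold change of 0.07 (limma adjusted p 0.883), with a sign that turned without control pool 3 (-0.01), control pool 4 (-0.04) or NSD3 morpholino pool 2 (-0.02). FEZF1 was lowest in control pool 4, at 15.4 FPKM, the pool where FEZF2 was highest. BARHL2, a homeobox gene of the diencephalon, had -0.48 (limma adjusted p 0.264), LMO3 -0.35 (0.331) and MAB21L2, a gene of eye development, -0.29 (0.458).

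Of the 23 genes 9 had a mean under 1 FPKM, among them NKX2-1 (0.545 FPKM), a ventral forebrain gene, VAX1 (0.104 FPKM), a ventral eye and forebrain gene, and the RAX paralog RAX2 (0.288 FPKM). The median log2 fold change of the 14 tested genes was -0.23, with 9 negative and 5 positive. At an unadjusted p under 0.05 limma found 5 of the 14, against 18.1% of all tested genes. The authors' deposited table lists 3 of the 23, beside 3.52% of the genes in the FPKM table. Some other lists also had negative medians, at -0.29 for midbrain and boundary genes (11 of 13 negative), -0.39 for neural crest genes (11 of 11) and -0.10 for pan-neural genes (9 of 9). The hindbrain median was -0.05. Medians were positive for head mesenchyme (0.17), blood and endothelium (0.09) and prechordal plate, notochord and foregut (0.07). They were also positive for non-neural ectoderm (0.04) and anterior preplacodal and lens ectoderm (0.02). In the setting without control pools 4 and 5 the median of the 14 rostral genes was -0.16 and 0 of them were called. Of all 11904 genes tested in that setting, 202 were higher and 145 lower. With replicate numbers as a block the median was -0.23 with 1 called lower, beside 97 higher and 62 lower of 11935. With FPKM rescaled to the same total it was -0.275 with 1 called lower, beside 125 higher and 173 lower of 11938. The median over all tested genes was -0.047 in that last setting. The medians of the 14 and of the 8 were not compared by a test.

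Lists for more caudal regions were followed per pool in the same way, as the mean over tested genes of log2(FPKM + 0.5) with each gene centred. The 8 tested forebrain and eye field genes spanned -0.15 to 0.17 over the 10 pools. The 13 midbrain and midbrain-hindbrain boundary genes spanned -0.35 to 0.64, with control pools 5 (0.64) and 4 (0.29) above all others and the NSD3 morpholino pools between -0.35 and -0.03. The 6 hindbrain genes spanned -0.74 in NSD3 morpholino pool 1 to 0.66 in NSD3 morpholino pool 2. The control pools lay inside that range, from -0.46 to 0.65. Control pools 4 and 5 were also the highest of the 10 for the 11 neural crest genes (0.231 and 0.755) and the 9 pan-neural genes (0.15 and 0.33).

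Taken as a difference within each pool, the forebrain and eye field level minus the midbrain level was lowest in control pools 4 (-0.31) and 5 (-0.47). It stood between 0.03 and 0.08 in control pools 1 to 3 and between -0.03 and 0.22 in the NSD3 morpholino pools. Minus the hindbrain level, it ran from -0.48 to 0.63 in controls and from -0.71 to 0.78 with the NSD3 morpholino. The highest value was in NSD3 morpholino pool 1, where the hindbrain level was -0.74 and the forebrain and eye field level 0.04.

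**Figure D4:**
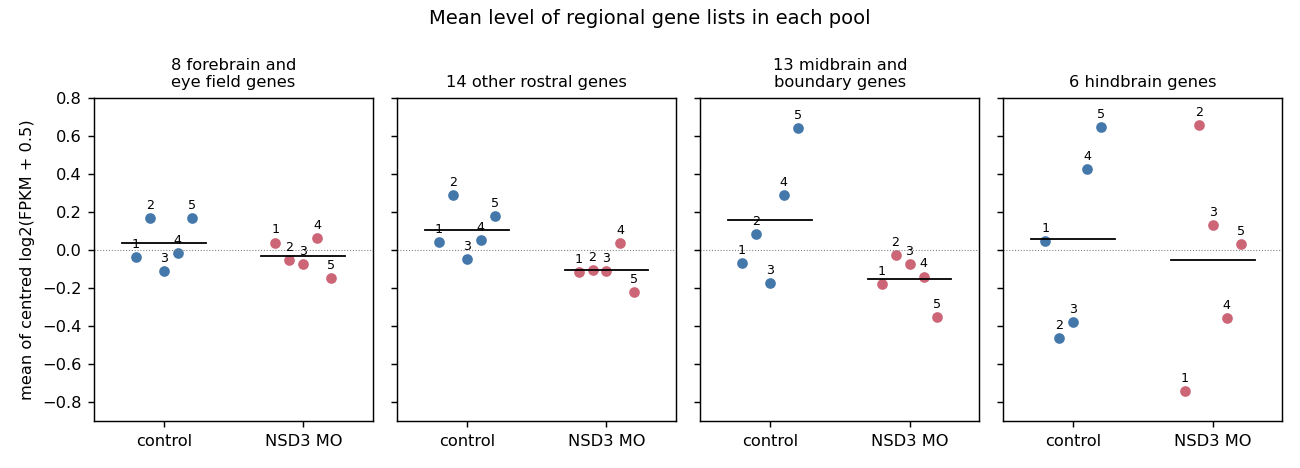
Mean level of 4 regional gene lists in each pool, as the mean over tested genes of log2(FPKM + 0.5) minus each gene's mean over the pools (vertical axis), with replicate numbers above the points and group means as bars. The forebrain and eye field genes span -0.15 to 0.17 over both groups, the midbrain and boundary genes reach 0.64 in control pool 5, and the hindbrain genes run from -0.74 to 0.66.

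Ectoderm beside the neural plate was followed as well, since PAX6, SIX3 and OTX1 are also expressed in the rostral placodes and the lens. The 10 tested genes of anterior preplacodal and lens ectoderm spanned -0.30 to 0.26 in controls and -0.25 to 0.19 with the NSD3 morpholino. Limma called 0 of the 10, beside 2.52% of all tested genes, with 2 at an unadjusted p under 0.05, beside 18.1%. Of the 15 genes of this list with FPKM values, the authors' deposited table lists 2, beside 3.52% of all genes. Among them was SOX21 (log2 fold change -0.57, adjusted p 0.0427). The 8 tested genes of non-neural ectoderm spanned -0.31 to 0.26 in controls and -0.09 to 0.24 with the NSD3 morpholino. Limma called 0 of the 8, with 4 at an unadjusted p under 0.05, beside the same shares of all tested genes. Of the 10 genes of this list with FPKM values, the authors' deposited table lists 1, KRT7 (0.49, adjusted p 0.00834). The part of these tissues in the PAX6, SIX3 and OTX1 values was not tested.

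In the remaining lists limma called 1 of 13 midbrain and boundary genes, 1 of 9 pan-neural genes and 2 of 11 neural crest genes, all lower, and 1 of 5 head mesenchyme genes, higher, beside 2.52% of all tested genes. It called 0 of 6 hindbrain genes, 0 of 8 genes of prechordal plate, notochord and foregut and 0 of 4 of blood and endothelium. At an unadjusted p under 0.05 it found 1, 1 and 2 of them, beside 18.1% of all tested genes. The authors' deposited table lists 0 genes of these 3 lists, beside 3.52% of the genes in the FPKM table. In the lists with calls, unadjusted p under 0.05 held for 6 of 13 midbrain and boundary, 3 of 9 pan-neural and 5 of 11 neural crest genes. It also held for 2 of 5 head mesenchyme genes. Of those lists' genes with FPKM values, the authors' deposited table lists 2 of 14, 3 of 9, 4 of 12 and 1 of 9, in the same order. The midbrain-hindbrain gene EN1 had a log2 fold change of -1.07 (limma adjusted p 0.0192) and lost its call without NSD3 morpholino pool 2 (0.0544) or 5 (0.0534), and without control pools 4 and 5 (0.0575). The neural adhesion gene NCAM1 had -0.49 (0.0049) and the neural crest gene TFAP2B -0.66 (0.0141), and both calls held without each pool in turn. The neural crest gene SOX9 (-0.95, 0.0333) lost its call when any 1 of 7 pools was left out, without a filter on low values (0.0573), without a trend (0.05255) and without control pools 4 and 5 (0.0852). The head mesenchyme gene FOXC2 (0.76, limma adjusted p 0.0222) lost it when any 1 of 6 pools was left out.

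Genes whose pattern over the pools was most like that of the 8 tested genes were ranked by Pearson r, over 10 pools and with each gene centred on its group means. The pattern was the mean of the 8 genes at unit variance, and no p is given because it was ranked over all tested genes. Each of the 8 was set against the mean of the other 7, since a gene is always partly like a mean that contains it. This r was highest for SIX3 (0.63) and EMX2 (0.61), followed by OTX1 (0.34) and PAX6 (0.32). It was 0.09 for RAX, -0.12 for LHX2, -0.21 for FEZF2 and -0.515 for HESX1. Genes outside the list were set against the mean of all 8, so their r is not like for like with those values. Against that same mean, which contains them, the 8 ran from -0.27 (HESX1) to 0.80 (SIX3). Outside the list the 6 highest of all tested genes were PDGFRB (0.96), MGAT1 (0.94), FBXL18 (0.92), BARHL2 (0.92), GRIA3 (0.91) and BARHL1 (0.91). Of these 6, 0 were called between the groups, beside 2.52% of all tested genes. Their limma adjusted p ran from 0.264 (BARHL2) to 0.808 (MGAT1). PDGFRB and GRIA3 were low, at 1.91 and 1.26 FPKM, and MGAT1 stood at 27.4 FPKM.

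The position of the genes was looked up only as an order, in RefSeq's gene table for assembly GRCg7b, which is not the build of the files. All 9 genes were found there by symbol. SIX3 lay next to SIX2, a homeobox gene of the same family. SIX2 stood at 1.06 FPKM beside 77.0 FPKM for SIX3 and had a log2 fold change of 0.50 (limma adjusted p 0.286).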

How the data were processed

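Poly(A) RNA was sequenced from 10 libraries, 5 per group, which were grouped by their titles. The authors deposited FPKM values per gene, with at most 3 decimals, and a table of log2 fold changes, adjusted p-values and mean counts per gene given as a normalized score. The tools named, per the submitters' processing notes, are STAR 2.5.3a, Trimmomatic 0.32 and DESeq2 1.28.1, and the build is GRCg6a (galGal6). How each was used, how fragments were counted, whether by strand, and against which annotation is not given in the sources used here.

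Because FPKM are not counts, limma 3.58.1 (R 4.3.3) with a mean-variance trend was fitted to log2(FPKM + 0.5) for the 11935 genes with a mean of at least 1 FPKM, with 1 term for the group. Tests were two-sided, with Benjamini-Hochberg adjustment over those genes. Fold changes on this scale understate changes of low genes. The deposited values had a median-ratio factor of 1.004 in every library, while total FPKM ran from 492837 to 533199. The alternative with FPKM rescaled by median ratios could therefore change little, and it gave 179 genes higher and 122 lower again. Exact permutation tests used all 252 arrangements of the libraries. Tables and figures were made in Python 3.11.15. The fit and the depth estimate were tested on simulated data. Over the 11935 tested genes, no pair of libraries within a group shared more than 0.142% of its FPKM values.

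The members, the other 10 gene lists and the alternatives were chosen with earlier results of these data known. Genes named outside the members were the tested rostral genes, up to 3 called genes per list, 6 by likeness and NSD3. HBA1, HBBA, RUNX1, the HOX genes, NKX2-1, VAX1, RAX2, SIX2, SOX21 and KRT7 were named after their values were seen. Coordinates and sequences are not printed, and some genes that these rules take are not reported here.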

Additional observations from a re-analysis of the deposited data

Results flagged for a closer look

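In 4 of 68 groups of 5 pools, 1 pool stood far from the other pools of its group by Dixon's criterion at the 95% level, against about 1 in 20 by chance. HESX1 was lowest in NSD3 morpholino pool 1, at 17.9 FPKM, the only case among the 18 groups of the 9 forebrain and eye field genes. DRAXIN was highest in NSD3 morpholino pool 2, at 351 FPKM. EN1 was lowest among controls in pool 3, at 5.74 FPKM, and TFAP2B was highest in control pool 5, at 81.9 FPKM.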

How the results depend on the processing

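No forebrain or eye field gene was called in any of 20 alternative settings for 7 of the tested genes and 19 for EMX2, and their median log2 fold change ran from -0.07 to 0.04 when 1 library was left out. SIX3 (0.022 to 0.202), PAX6 (-0.399 to -0.157), FEZF2 (-0.171 to -0.044) and OTX1 (-0.451 to -0.194) kept their sign in all 20. The others were near 0 and turned sign without some libraries, with ranges of -0.084 to 0.217 (RAX), -0.06 to 0.221 (LHX2), -0.024 to 0.18 (HESX1) and -0.225 to 0.012 (EMX2), and likewise FEZF1 (-0.035 to 0.156) and MGAT1 (-0.004 to 0.131). Without control replicates 4 and 5 together, the log2 fold change was -0.012 for LHX2, 0.033 for OTX2, -0.038 for SHISA2 and 0.01 for PDGFRB, and the calls of EN1 (adjusted p 0.0575) and SOX9 (0.0852) ended. With FPKM rescaled to the same total, SHISA2 stood at -0.001 and NSD3 was called (adjusted p 0.036), as it was with a filter at a mean of 5 FPKM (0.048).

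Over all genes, array weights gave 344 higher and 207 lower, and leaving out 1 library gave 69 to 211 higher and 32 to 151 lower, lowest each time when replicate 2 of the NSD3 morpholino was left out. Replicate numbers are only names in the labels, and same-numbered libraries correlated between -0.128 and 0.34 in their deviations, with only controls 1 and 5 matching their own number best. As a replicate block the numbers left 97 genes higher and 62 lower, with 0 of the 8 forebrain and eye field genes called, and ended the calls of EN1, TFAP2B, SOX9 and FOXC2 (adjusted p 0.0601 to 0.0839). The causes were not tested. With 5 pools a group, small changes could have been missed. SIX6, which was not tested, had 38 control fragments in all at the smallest whole numbers that fit.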
